A study of Mus musculus with 12 samples.

Results

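Trans divergence between 2 mouse strains was measured gene by gene in whole retina. It is the log2 difference between the parental F0 strains, Cast/EiJ minus C57BL/6J, less the log2 difference between the Cast/EiJ and C57BL/6J alleles inside F1 hybrids. A negative value lies toward C57BL/6J, meaning that the F0 strains differed more toward C57BL/6J than the F1 alleles did, and a positive value lies toward Cast/EiJ. The genes described are the autosomal protein-coding genes whose allele-specific unique hits, the reads that matched 1 gene and 1 allele, averaged 50 or more across F1 libraries. They number 10406 of the 37991 genes in the deposited tables (27.4%), and the floor used read number only, not the size of any difference. Retinas came from male mice aged 8 weeks in 4 groups of 3 libraries: F0 C57BL/6J, a standard inbred strain, F0 Cast/EiJ, an inbred strain derived from wild Mus musculus castaneus, and reciprocal F1 hybrids, named B6xCast when the mother was Cast/EiJ and CastxB6 when she was C57BL/6J. A library was a pool of 6 to 8 retinas, so every test measures the spread between pools. All libraries shared a sequencing lane, the F1 libraries had an additional lane, and F0 reads were aligned to the transcripts of a single strain whereas F1 reads were aligned to those of both. These features separate F0 from F1 libraries as *trans* regulation does, and they cannot be told apart from it in this contrast.

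A hybrid animal carries 1 copy of each gene from either parent, and because every factor of the cell can act on both copies, a difference in their expression is attributed to the DNA attached to each, in *cis*. Parental strains differ in linked sequence and also in the diffusible factors, signals and cell numbers that act on both alleles, and the excess of the parental over the allelic difference is called the *trans* component. Where the *trans* component opposes the allelic difference, the parental levels lie closer together than the alleles do or even lie in the reverse order. In whole retina, which is composed mainly of rod photoreceptors, a parental difference in the proportion of a cell class also enters the *trans* component, since it changes both alleles of the hybrid alike, and fewer cells of a type cannot be told apart from less RNA per cell.

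Levels are given in count equivalents, the read counts estimated for a gene and scaled by the authors so that libraries are comparable. Each F1 allele column is on the same scale as an F0 column. Column totals were 12648792 to 13843914 count equivalents. Unique hits numbered 8158534 to 11888819 per F0 library and 8808577 to 12363291 per F1 library, of which each F1 allele column held 4362511 to 6248716. The median gene had 405 allele-specific unique hits per F1 library. Among F0 libraries, every Cast/EiJ library had fewer unique hits than every C57BL/6J library. The lowest F0 number was that of Cast/EiJ replicate 2 and the highest that of C57BL/6J replicate 2. Read number thus differed with strain, and its part in the F0 difference was not tested. Retinal identity was clear in every column. The rod transducin gene Gnat1 lay between 175000 and 213000, whereas Alb, made by liver, stayed at or below 0.561 and Krt5, a keratin of skin, at or below 2.39. Of the pigment epithelium genes, Rpe65 reached 43.1 and Tyrp1 47.8.

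A *trans* component was called for 1485 genes at an adjusted p under 0.05 (limma, Benjamini-Hochberg adjustment over the 13414 genes tested), which is 14.3% of the 10406 genes and compares with 14.0% of all genes tested. It lay toward Cast/EiJ for 660 genes (6.34%) and toward C57BL/6J for 825 (7.93%). The balance depended on the threshold and the fit, with 182 and 418 among calls of at least 1.5-fold, and 963 and 954 with edgeR on unique hits and the replicate number as a block. An allelic difference was called for 4907 genes (47.2%) and an F0 difference for 4017 (38.6%). Most *trans* components were small. The median of the called values was 0.50 in size on the log2 scale, against a median standard error of 0.13 over the 10406 genes. Of the called genes, 600 differed by at least 1.5-fold and 221 by at least 2-fold. In 1145 genes (11.0% of the 10406) the component was called and all 9 pairwise F0 differences lay outside the range of the 6 F1 allelic differences. Over the 10406 genes, the median *trans* value was 0.02.

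The *trans* component opposed a called allelic difference in 629 genes (6.04% of the 10406, 42.4% of the calls) and ran in the same direction as one in 318 (3.06%, 21.4% of the calls). The other 538 (36.2% of the calls) had no called allelic difference. Opposing components divided evenly, with 320 toward Cast/EiJ and 309 toward C57BL/6J. For 429 of the 629 no F0 difference was called, so that the alleles differed in the hybrid while the parents were not shown to. The F0 difference was called in the direction of the allelic difference in 47 and against it in 153. Since the allelic difference enters both quantities, and with the reverse sign in the *trans* component, an error in the F1 allelic values alone can make a gene look opposing. Taking the allelic difference from the 3 libraries of one cross and the *trans* component from the other cross gave 382 and 348 opposing genes against 229 and 229 in the same direction.

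**Figure D1:**
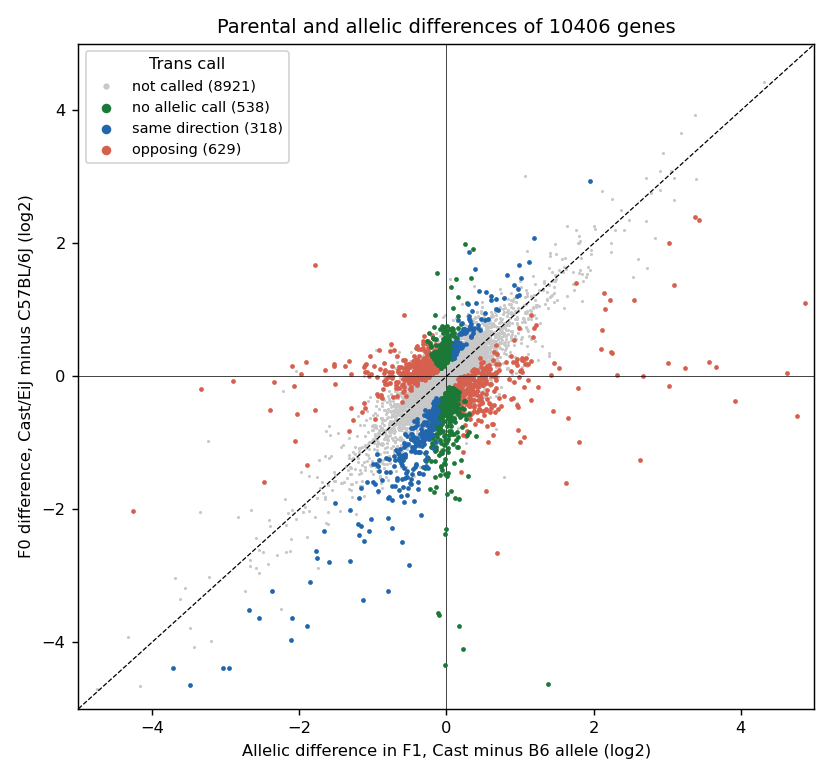
The F0 difference (Cast/EiJ minus C57BL/6J, log2, vertical axis) against the F1 allelic difference (Cast/EiJ minus C57BL/6J allele, log2, horizontal axis) for each of the 10406 genes, with called genes coloured by class. The vertical distance from the diagonal is the *trans* component. The 629 opposing genes fall on the side of the diagonal toward the horizontal line at 0, the 318 in the same direction fall beyond it, and the 538 without an allelic call lie near an allelic difference of 0. Axes run from -5 to 5 and 33 genes lie outside them.

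Transcription factors that set rod and cone identity were among the genes with a *trans* component. Of 18 genes in the rod and cone transcription network, 4 were called toward Cast/EiJ and 4 toward C57BL/6J. That is 22.2% each, against 6.34% and 7.93% of all genes. Their median was -0.02, against 0.02 over all 10406 genes. Nr2e3 (ENSMUSG00000032292, chr9:59790578-59808466, NCBI37), which represses cone genes in rods, had 7210, 7050 and 8260 count equivalents in the 3 C57BL/6J libraries and 9990, 9260 and 9380 in the 3 Cast/EiJ libraries. In the 6 F1 libraries its C57BL/6J allele had 7900 to 9320 (median 8950) and its Cast/EiJ allele 8160 to 9260 (median 8670). Every Cast/EiJ retina pool was above every C57BL/6J pool while the alleles overlapped, and the *trans* component was 0.36 ± 0.08 (SE, adjusted p = 0.0060, limma). Rorb (ENSMUSG00000036192, chr19:19005095-19185686), a nuclear receptor required early in photoreceptor differentiation, moved the other way. Its F0 values were 6220, 7140 and 6110 in C57BL/6J and 4090, 5090 and 4710 in Cast/EiJ, without overlap, and its alleles 5180 to 5680 (median 5545) and 5560 to 6130 (median 5730). With no allelic call, its *trans* component of -0.57 ± 0.09 (adjusted p = 3.3e-04, limma) stood beside an F0 difference of -0.49.

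Prdm1, also called Blimp1, which favours photoreceptor over bipolar fate, ran in the same direction in *cis* and in *trans*. Its levels were 287, 244 and 283 in C57BL/6J, 671, 647 and 661 in Cast/EiJ, 367 to 406 (median 387) for the C57BL/6J allele and 510 to 558 (median 522) for the Cast/EiJ allele. The 4 sets of values did not overlap, and the alleles lay between the parents. An allelic difference of 0.45 and a *trans* component of 0.83 ± 0.08 (adjusted p = 3.9e-06, limma) made up an F0 difference of 1.28. Besides Samd7, described next and the largest of the list, the remaining called members were Pias3, a SUMO ligase that acts with photoreceptor factors (0.63), the cell cycle regulator Rb1 (0.36, opposing), the thyroid hormone receptor Thrb of cones (-0.25, same direction) and Otx2, which acts upstream of photoreceptor fate (-0.24, opposing). Otx2 and Thrb were not called on unique hits (edgeR, adjusted p = 0.18 and 0.064). Crx and Nrl, the homeodomain and leucine zipper factors that drive photoreceptor and rod genes, had *trans* values of 0.15 ± 0.10 (adjusted p = 0.33, limma) and 0.01 ± 0.13 (adjusted p = 0.98), neither called.

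Samd7 (ENSMUSG00000051860, chr3:30645215-30666096), a photoreceptor protein of the Polycomb repressor family, had the largest opposing component among rod genes. F0 levels were 2550, 3210 and 3180 in C57BL/6J and 6310, 6610 and 6780 in Cast/EiJ. In the hybrids the C57BL/6J allele ranged from 1270 to 1820 (median 1610) and the Cast/EiJ allele from 8780 to 9640 (median 9020). The alleles were thus further apart than the parents on both sides, with an allelic difference of 2.54, an F0 difference of 1.15 and a *trans* component of -1.40 ± 0.09 (adjusted p = 2.3e-08, limma). Pde6g, the inhibitory subunit of the rod phosphodiesterase, showed another opposing form. Its F0 values were 26300, 24200 and 26900 in C57BL/6J and 24000, 25000 and 26900 in Cast/EiJ, and its alleles 31000 to 35200 (median 33600) and 18500 to 21100 (median 20400). The parents overlapped and the alleles did not, which gave a *trans* component of 0.71 ± 0.07 (adjusted p = 6.3e-06).

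Of 22 rod genes 4 had a *trans* component (18.2%, against 14.3% of all genes), of which 3 were called toward Cast/EiJ (Pde6g, Nr2e3 and the phosphodiesterase subunit Pde6b at 0.23) and 1 toward C57BL/6J (Samd7). Their median was 0.05. In the phototransduction cascade of rods and cones, 2 of 28 genes were called toward Cast/EiJ and 5 toward C57BL/6J (median -0.06). These are 7.14% and 17.9%, against 6.34% and 7.93% of all genes. Of 27 genes used by both rods and cones, 4 (14.8%) were called toward Cast/EiJ and 2 (7.41%) toward C57BL/6J. Prom1, a protein of the outer segment discs (0.34 ± 0.06, opposing), and Unc119, a lipid-binding trafficking protein (0.24 ± 0.05), lay toward Cast/EiJ, and Rgs9bp, the anchor of the transducin GTPase-activating complex (-0.31 ± 0.05), toward C57BL/6J. Aipl1, a chaperone of phosphodiesterase, was called at 0.78, but its value on unique hits was 0.09 (adjusted p = 0.77, edgeR). The summed rod genes ranged from 1117510 to 1140120 in C57BL/6J and from 1151950 to 1210760 in Cast/EiJ.

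Cone genes lay toward C57BL/6J. Of 10 cone genes, 5 were called toward C57BL/6J and none toward Cast/EiJ, against 7.93% and 6.34% of all genes, and all 10 values were negative (median -0.39). On unique hits edgeR called the same numbers, 5 and 0, and at an unadjusted p under 0.05 limma gave 8 and 0. Opn1sw (ENSMUSG00000058831, chr6:29326671-29338468), the short-wavelength cone opsin, had 4710, 4120 and 4710 count equivalents in C57BL/6J and 2850, 2520 and 2480 in Cast/EiJ. Its F1 alleles ranged from 3590 to 4200 (median 3795) for C57BL/6J and from 3090 to 3670 (median 3420) for Cast/EiJ. The parents were further apart than the alleles, with a *trans* component of -0.61 ± 0.09 (adjusted p = 2.7e-04, limma) and an allelic difference of -0.17. Pde6c, the cone phosphodiesterase, had 1500, 1440 and 1390 in C57BL/6J and 996, 1100 and 1050 in Cast/EiJ, with alleles at 972 to 1250 (median 1110) and 1070 to 1220 (median 1155). It had no allelic call, and its *trans* component was -0.50 ± 0.09 (adjusted p = 0.0010). The potassium channel subunit Kcne2 (-0.52 ± 0.13), the cone channel subunit Cnga3 (-0.60 ± 0.18) and Thrb were the other members called.

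The sum of the 10 cone genes was 17380 to 18007 in C57BL/6J and 14233 to 16096 in Cast/EiJ, without overlap, and 15120 to 16366 in F1 B6xCast and 15814 to 16304 in F1 CastxB6, inside the range of Cast/EiJ or just above it. The count of 5 was not robust to the choice of libraries. It fell to 3 with the F1 CastxB6 libraries as the only source of the allelic difference, to 2 without C57BL/6J replicate 3, and to 3 without C57BL/6J replicate 2, F1 B6xCast replicate 2 or F1 CastxB6 replicate 3.

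Ganglion cell genes also lay toward C57BL/6J. These cells form the optic nerve, and Nefh, Nefm and Nefl encode the neurofilaments of their axons. Of 20 ganglion cell genes, 7 (35%) were called toward C57BL/6J and 1 (5%) toward Cast/EiJ, against 7.93% and 6.34% of all genes. Of the 20 values, 18 were negative (median -0.29). On unique hits the counts were 7 and 1. Nefh (ENSMUSG00000020396, chr11:4838757-4848067) had 1670, 1420 and 1670 count equivalents in C57BL/6J and 925, 788 and 836 in Cast/EiJ, whereas its alleles had 1300 to 1400 (median 1360) and 1250 to 1430 (median 1325). The alleles overlapped each other and lay above every Cast/EiJ pool, only their highest value reached the lowest C57BL/6J pool, and the *trans* component was -0.87 ± 0.09 (adjusted p = 3.6e-06, limma), nearly the entire F0 difference of -0.90. Thy1, a surface glycoprotein of ganglion cells, had 2740, 2380 and 2560 in C57BL/6J and 1590, 1470 and 1570 in Cast/EiJ, and 2130 to 2410 (median 2330) and 1830 to 2010 (median 1895) for the alleles. Here the allelic difference of -0.27 ran in the direction of the *trans* component of -0.46 ± 0.07 (adjusted p = 5.2e-04).

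Further ganglion cell members called toward C57BL/6J were Nefm (-0.54 ± 0.12), Nefl (-0.50 ± 0.11), the nicotinic receptor subunit Chrnb3 (-0.46 ± 0.10), the vesicular glutamate transporter Slc17a6 (-0.36 ± 0.10, opposing) and the microtubule regulator Stmn2 (-0.37 ± 0.11), of which Stmn2 was not called on unique hits (adjusted p = 0.16, edgeR). The summed ganglion cell genes were 22570 to 25048 in C57BL/6J, 16172 to 17530 in Cast/EiJ, 20135 to 21766 in F1 B6xCast and 21218 to 22591 in F1 CastxB6, so that the hybrids lay between the parents. The exception among the calls, Sncg (gamma-synuclein), had 1100, 1140 and 1230 in C57BL/6J and 1000, 1120 and 1190 in Cast/EiJ, but 1970 to 2520 (median 2295) for the C57BL/6J allele and 147 to 480 (median 342) for the Cast/EiJ allele. Overlapping parents with most F1 reads on one allele gave a *trans* component of 2.82 ± 0.31 (adjusted p = 1.1e-05), a form shared by several of the largest differences described further on.

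**Figure D2:**
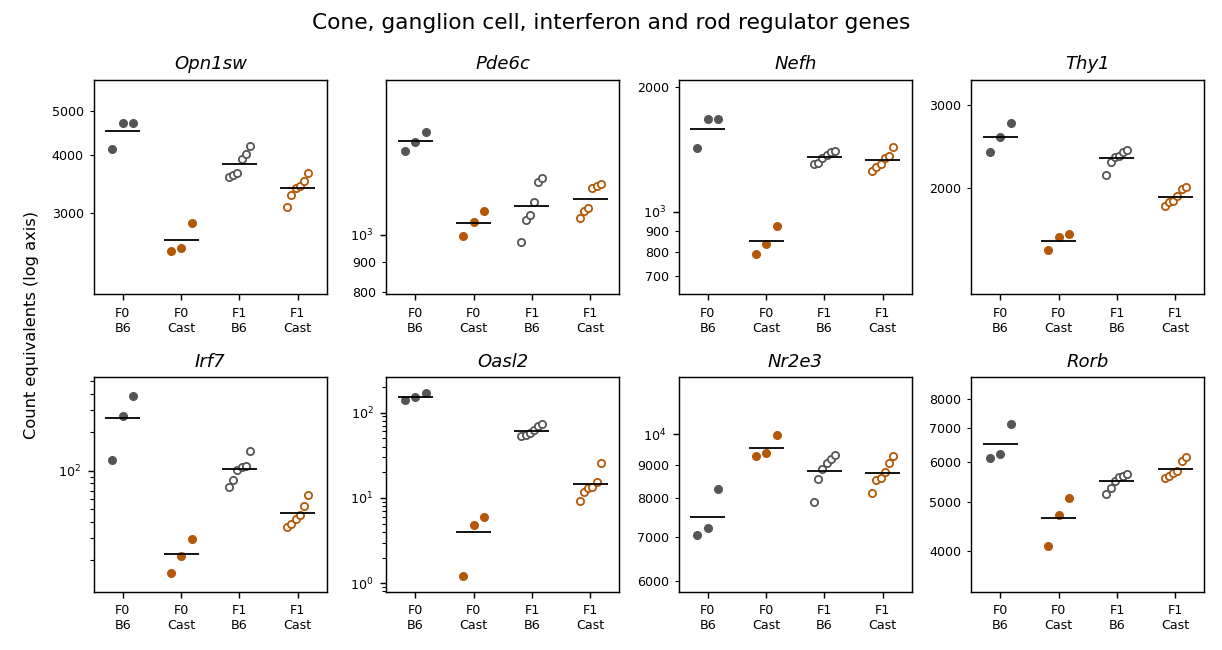
Count equivalents (log axis) of 8 genes in each library: cone genes Opn1sw and Pde6c, ganglion cell genes Nefh and Thy1, interferon genes Irf7 and Oasl2, and the photoreceptor factors Nr2e3 and Rorb. Filled points are F0 libraries (3 for each strain), open points are the 6 F1 values of each allele, and black lines are means. For Nefh the 3 C57BL/6J values (1420 to 1670) and the 3 Cast/EiJ values (788 to 925) lie apart while the 2 alleles overlap.

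Called bipolar genes lay mostly toward C57BL/6J, while amacrine genes were called about as often as all genes (15.4% against 14.3%). Of 23 bipolar genes, 4 (17.4%) were called toward C57BL/6J and 1 (4.35%) toward Cast/EiJ, against 7.93% and 6.34% of all genes. Their median was -0.12, the counts were the same on unique hits, and all 5 called genes also had an allelic call. Gpr179 and Grm6 encode the orphan receptor and the glutamate receptor of the ON bipolar cascade. Gpr179 had 2860, 2990 and 2640 in C57BL/6J and 1660, 1710 and 1600 in Cast/EiJ, with alleles at 2220 to 2630 (median 2395) and 1900 to 2290 (median 2010), and a *trans* component of -0.53 ± 0.07 (adjusted p = 1.0e-04, limma) in the direction of the allelic difference. Grm6 opposed its allelic difference of 0.19 at -0.43 ± 0.10, whereas Grik1, a kainate receptor of OFF bipolar cells, opposed one of -0.27 at 0.64 ± 0.07. The carbonic anhydrase-like genes Car8 (-0.49) and Car10 (-0.33) were the remaining calls. Of 26 amacrine genes, 4 were called toward Cast/EiJ and none toward C57BL/6J, against 6.34% and 7.93% of all genes (median 0.07). The counts were 5 and 0 on unique hits, and 7 and 1 at an unadjusted p under 0.05 with limma. The 4 called genes were Pax6, a homeodomain factor of inner retinal neurons (0.26 ± 0.06), the tachykinin gene Tac1 (0.70 ± 0.19), the AP-2 factor Tfap2a (0.45 ± 0.13) and Gad1, which makes GABA (0.42 ± 0.13, opposing). Pax6 had 4920, 4910 and 4920 in C57BL/6J and 5770, 6260 and 6030 in Cast/EiJ, and alleles at 4870 to 6230 (median 5285) and 4880 to 6330 (median 5505) that overlapped each other and both parents. Summed amacrine genes were 33852 to 36383 in C57BL/6J and 37643 to 39215 in Cast/EiJ. They were 39001 to 39410 in F1 B6xCast and 36889 to 37708 in F1 CastxB6, so that the hybrids did not all lie between the parents. The number of amacrine calls toward Cast/EiJ fell to 2 with F1 B6xCast alone and to 1 with F1 CastxB6 alone, to 1 without Cast/EiJ replicate 3, and to 2 without C57BL/6J replicate 1, C57BL/6J replicate 2, F1 CastxB6 replicate 1 or F1 CastxB6 replicate 2. Bipolar calls toward C57BL/6J fell to 2 without C57BL/6J replicate 3 or Cast/EiJ replicate 1. Only 3 horizontal cell genes were measured, of which 1 was called, toward Cast/EiJ.

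Mueller glia genes were called about as often as all genes (13.6% against 14.3%). Of 22 genes, 1 was called toward Cast/EiJ and 2 toward C57BL/6J (median -0.08), and all 3 had an allelic call. The matrix protein Sparc opposed an allelic difference of 0.25 at -0.52 ± 0.09, the secreted chaperone Clu lay in the allelic direction at -0.29 ± 0.06, and the secreted glycoprotein Dkk3 opposed one of -0.33 at 0.30 ± 0.07. In 10 genes of astrocytes and gliosis, Gfap and Serpina3n were called toward C57BL/6J (20%, against 7.93% of all genes), both opposing. Gfap, the filament protein of astrocytes and of stressed Mueller glia, had 189, 216 and 192 in C57BL/6J and 118, 155 and 154 in Cast/EiJ, but 53.3 to 96.9 (median 70.1) and 74 to 128 (median 98.5) for the alleles. All C57BL/6J pools were above all F1 alleles, and the *trans* component was -0.93 ± 0.24 (adjusted p = 0.015, limma) beside an allelic difference of 0.44. Serpina3n, a serine protease inhibitor induced in reactive astrocytes, had a *trans* component of -1.43 ± 0.35 and an allelic difference of 2.12. The sum of these 10 genes was 4195 to 4762 in C57BL/6J and 2860 to 3038 in Cast/EiJ. None of the 3 microglia genes was called by limma or edgeR, and 1 had an unadjusted p under 0.05, toward Cast/EiJ, and was called with F1 B6xCast alone. The protease Ctss and the receptor Csf1r had -0.57 ± 0.28 and -0.55 ± 0.34.

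Of 14 vessel and pericyte genes, 4 (28.6%) were called toward C57BL/6J and 1 (7.14%) toward Cast/EiJ, against 7.93% and 6.34% of all genes. Their median was -0.37, and on unique hits the counts were 3 and 1. Ly6c1, an endothelial surface protein (-1.07 ± 0.20), Cdh5, the cadherin of endothelial junctions (-0.87 ± 0.22), the organic anion transporter Slco1a4 (-0.98 ± 0.26) and the tight junction gene Cldn5 (-0.91 ± 0.29) lay toward C57BL/6J, and the VEGF receptor Kdr toward Cast/EiJ (0.56 ± 0.17). Ly6c1 had 146, 148 and 130 in C57BL/6J and 43.6, 48.7 and 39.5 in Cast/EiJ, without overlap, and alleles at 88.6 to 126 (median 114) and 59 to 88 (median 74.8). The sum of the 14 genes did not follow the calls, at 8164 to 10086 in C57BL/6J and 8978 to 10004 in Cast/EiJ, which overlapped. Only 2 vessel genes were called toward C57BL/6J with either F1 cross alone, or without Cast/EiJ replicate 1. Kdr was not called toward Cast/EiJ with either cross alone. Some genes of tissues next to the retina were called as well. For pigment epithelium and blood 28.6% and 40% were called, all toward C57BL/6J, against 7.93% of all genes. On unique hits 1 pigment epithelium gene and 3 blood genes were called toward C57BL/6J. Of 7 pigment epithelium genes, the thyroxine carrier Ttr (-1.78 ± 0.41) and the opsin-like Rgr (-1.36 ± 0.42) were called toward C57BL/6J, and of 5 blood genes the beta-globin Hbb-b1 (-1.15 ± 0.27) and the red cell enzyme Bpgm (-0.41 ± 0.13). The sum of the 7 pigment epithelium genes was 2109 to 2309 in C57BL/6J and 1892 to 1913 in Cast/EiJ, and that of the 5 blood genes 2150 to 2189 and 1447 to 1608. The part of adhering tissue or blood in the vessel, glial and immune results was not tested.

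**Figure D3:**
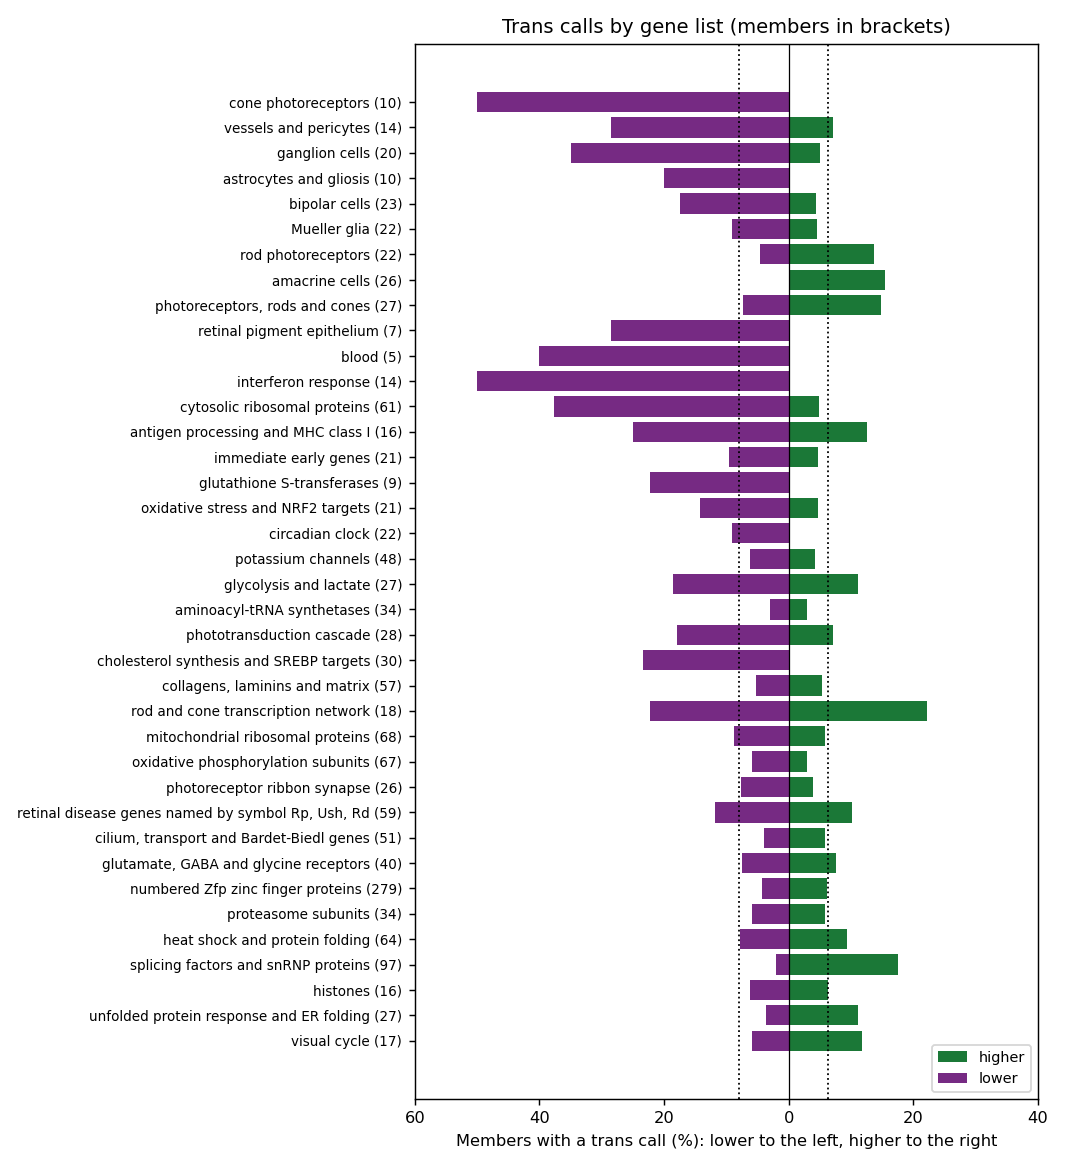
Percentage of the members of each list called toward C57BL/6J (left) and toward Cast/EiJ (right), for lists with at least 5 members. Dotted lines mark the percentages over all 10406 genes (7.93 and 6.34). Cone photoreceptors (5 of 10) and interferon response (7 of 14) reach furthest to the left, and splicing factors (17 of 97) and the rod and cone transcription network (4 of 18) lie to the right of the line for Cast/EiJ.

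Interferon response genes lay toward C57BL/6J. These genes are induced by interferon through a small set of transcription factors and encode antiviral sensors and enzymes. The factors bind the interferon-stimulated response element, searched here as GAAA, any 2 bases and GAAA, and the stretches that hold it are printed for those members in whose promoter it was found, with the match in capitals (TTTC, any 2 bases and TTTC where it reads on the other strand), to show what such a site looks like in these genes.
Eif2ak2, chr17:78882535-78882564, minus strand, GRCm38.p6: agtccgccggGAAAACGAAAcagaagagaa
Ifih1, chr2:62646206-62646233, minus strand, GRCm38.p6: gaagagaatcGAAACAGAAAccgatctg
Ddx58, chr4:40239804-40239833, minus strand, GRCm38.p6: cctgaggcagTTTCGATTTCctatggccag
Stat2, chr10:128270266-128270295, plus strand, GRCm38.p6: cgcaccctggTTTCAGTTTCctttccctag
RefSeq windows from 250 bases before to 50 bases after the transcript start were searched on both strands. A match was found in 4 of the 12 interferon members with a window, and in 3 of the 5 with a *trans* call (Eif2ak2, Ifih1 and Ddx58), against 3.44% of 32851 windows and 3.21% of the 7504 genes of the 10406 with a window. Stat2 was not called. The match begins 19 bases after the start in Eif2ak2, 33 after it in Ifih1 and 3 after it in Ddx58, and 222 before it in Stat2. A match is a description of the reference sequence of C57BL/6J and is no evidence of binding.

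Of the 14 interferon response genes, 7 (50%) were called toward C57BL/6J and none toward Cast/EiJ, against 7.93% and 6.34% of all genes. Of the 14 values, 13 were negative (median -0.56). On unique hits edgeR gave 7 and 0, and at an unadjusted p under 0.05 limma gave 8 and 0. Oasl2 (ENSMUSG00000029561, chr5:115346943-115362243), of the oligoadenylate synthetase family, had 153, 139 and 168 count equivalents in C57BL/6J and 5.99, 4.77 and 1.22 in Cast/EiJ. Its C57BL/6J allele ranged from 52.6 to 74.1 (median 59.4) and its Cast/EiJ allele from 9.18 to 25.4 (median 13.2) in the hybrids. No set overlapped another, and both alleles lay between the parents, with an allelic difference of -2.05 and a *trans* component of -3.06 ± 0.43 (adjusted p = 1.5e-04, limma). Irf7 (ENSMUSG00000025498, chr7:148448605-148452380), the factor that amplifies interferon production, had 122, 380 and 269 in C57BL/6J and 21.6, 16 and 29.1 in Cast/EiJ, with 74.8 to 143 (median 104) and 36.6 to 64.7 (median 43.6) for the alleles. It again ran in the same direction in *cis* (-1.13) and in *trans* (-2.24 ± 0.41, adjusted p = 0.0014).

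Parp14 (ENSMUSG00000034422, chr16:35832960-35871630), of the poly(ADP-ribose) polymerase family, was opposing instead. F0 values were 66.2, 81.7 and 85.6 in C57BL/6J and 61.7, 53.5 and 57.2 in Cast/EiJ, and the alleles had 19.9 to 54 (median 43.4) and 67.9 to 88.8 (median 76.9). The Cast/EiJ allele was the higher one in the hybrids by 0.96, no F0 difference was called (-0.42), and the *trans* component was -1.39 ± 0.33 (adjusted p = 0.0090, limma). Eif2ak2, the kinase PKR (-0.68 ± 0.21), opposed its allelic difference in the same way, and the RNA sensors Ifih1 (-1.06 ± 0.32) and Ddx58 (-0.69 ± 0.22) had no allelic call. The count of 7 fell to 4 with the allelic difference of F1 CastxB6 alone, and to 4 without C57BL/6J replicate 1, C57BL/6J replicate 2, Cast/EiJ replicate 2 or F1 CastxB6 replicate 1. Among 16 genes of antigen processing, 4 (25%) were called toward C57BL/6J and 2 (12.5%) toward Cast/EiJ, against 7.93% and 6.34% of all genes (median -0.23). B2m, the light chain of MHC class I, had 237, 221 and 203 in C57BL/6J and 134, 122 and 128 in Cast/EiJ, without overlap, and its alleles had 129 to 179 (median 156) and 133 to 154 (median 144) (*trans* -0.68 ± 0.13, adjusted p = 0.0019). The peptide transporter Tap2 (-0.72 ± 0.22) and the class I heavy chain H2-D1 (-0.83 ± 0.23) were also called toward C57BL/6J, and the peptide loading chaperone Pdia3 (0.42 ± 0.13) toward Cast/EiJ. The other called members, H2-Ke2 (-0.51 ± 0.10) and H2-Ke6 (0.47 ± 0.14), were listed by their H2 symbols and encode a prefoldin subunit and a steroid dehydrogenase, which do not present antigen. H2-D1 belongs to a polymorphic family whose members can share reads, and it was not called on unique hits (adjusted p = 0.057, edgeR). Neither call toward Cast/EiJ was made with either cross alone, and those toward C57BL/6J fell to 2 with F1 B6xCast alone and without C57BL/6J replicate 3, Cast/EiJ replicate 3 or F1 CastxB6 replicate 3.

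Cholesterol synthesis genes and targets of the SREBP factors, which raise sterol and fatty acid synthesis, had 7 calls among 30, all toward C57BL/6J. That is 23.3%, against 7.93% of all genes. Of the 30 values, 20 were negative (median -0.05). The counts were 7 and 0 on unique hits with edgeR and 11 and 0 at an unadjusted p under 0.05 with limma. Insig1, which retains SREBP in the endoplasmic reticulum and is itself a target, had 1020, 1030 and 1030 in C57BL/6J and 731, 797 and 825 in Cast/EiJ, with alleles at 910 to 1030 (median 948) and 921 to 1090 (median 1030). The parents were apart and the alleles overlapped (*trans* -0.47 ± 0.08, adjusted p = 5.2e-04, limma). Scd2, a fatty acid desaturase, was called at -0.42 ± 0.06, the elongase Elovl6 at -0.40 ± 0.09 and the sterol demethylase Cyp51 at -0.29 ± 0.08. The factor Srebf1 (-0.53 ± 0.14) and the sterol carrier Stard4 (-0.96 ± 0.16) opposed allelic differences of 0.34 and 0.32. Without Cast/EiJ replicate 1 the count fell to 4.

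Splicing factors were called mainly toward Cast/EiJ. Of 97 splicing factor and snRNP genes, 17 (17.5%) were called toward Cast/EiJ and 2 (2.06%) toward C57BL/6J, against 6.34% and 7.93% of all genes. Their median was 0.09. On unique hits 19 and 4 were called, and 13 of the 19 limma calls were shared. The hnRNP genes Hnrnpa2b1 and Hnrnph1, which encode pre-mRNA binding proteins, were called toward Cast/EiJ. Hnrnpa2b1 had 6910, 6310 and 7050 in C57BL/6J and 9220, 8870 and 8150 in Cast/EiJ, with alleles at 6780 to 7810 (median 7280) and 6780 to 7820 (median 7175) (*trans* 0.38 ± 0.07, adjusted p = 0.0018, limma). Hnrnph1 opposed a small allelic difference of -0.14 at 0.44 ± 0.09. In both the parents did not overlap. The number toward Cast/EiJ fell to 10 and 8 with F1 B6xCast or F1 CastxB6 alone, and to 7 without C57BL/6J replicate 2, 9 without Cast/EiJ replicate 1, 8 without Cast/EiJ replicate 2, 10 without F1 B6xCast replicate 2 and 8 without F1 CastxB6 replicate 2. Of the genes called the other way, Lsm7 was listed at 56.4, 0.000601 and 0.000478 in the Cast/EiJ libraries, so its fitted value rests on 2 libraries near 0.

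Immediate early genes, which neurons induce within minutes of stimulation, were called as often as all genes (3 of 21, 14.3%). Among them Egr1 and Nr4a1 were called toward C57BL/6J and the matrix protein Ctgf toward Cast/EiJ. Egr1 had 719, 1730 and 594 in C57BL/6J and 250, 359 and 390 in Cast/EiJ, and alleles at 406 to 556 (median 439.5) and 383 to 511 (median 453). Nr4a1 had 713, 1270 and 602 and 372, 450 and 481 in the parents. For both genes C57BL/6J replicate 2 was the highest pool, and the *trans* components were -1.45 ± 0.33 and -1.08 ± 0.25 (adjusted p = 0.0074 and 0.0077, limma). The amino acid and redox genes Asns, Slc7a11 and Gstm1 opposed large allelic differences. Asns, asparagine synthetase, had 465, 440 and 474 in C57BL/6J and 536, 514 and 617 in Cast/EiJ, with alleles at 221 to 328 (median 299) and 567 to 637 (median 610.5). The parents differed by 0.27 and the alleles by 1.09, giving -0.82 ± 0.13 in *trans* (adjusted p = 5.8e-04). Slc7a11, the cystine transporter, opposed an allelic difference of 2.15 at -1.15 ± 0.22, and Gstm1, a glutathione S-transferase, one of 1.04 at -0.79 ± 0.17.

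**Figure D4:**
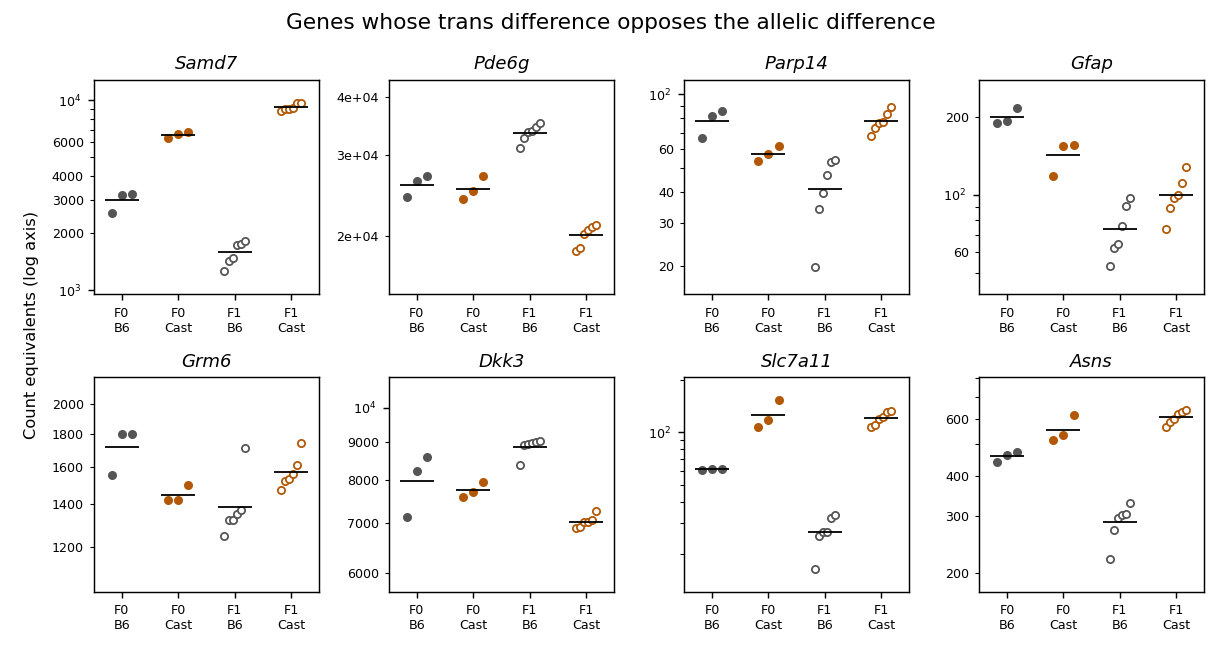
Count equivalents (log axis) of 8 genes whose *trans* component opposes the allelic difference, in each library: Samd7, Pde6g, Parp14, Gfap, Grm6, Dkk3, Slc7a11 and Asns. Filled points are the 3 F0 libraries of each strain, open points the 6 F1 values of each allele, and black lines are means. For Samd7 the F1 alleles lie further apart (1270 to 1820 against 8780 to 9640) than the F0 strains (2550 to 3210 against 6310 to 6780).

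Ribosomal protein genes held the most calls of any list apart from the zinc finger genes, and they are uncertain. Of 61 cytosolic ribosomal protein genes, 23 (37.7%) were called toward C57BL/6J and 3 (4.92%) toward Cast/EiJ, against 7.93% and 6.34% of all genes. Of the 61 values, 45 were negative (median -0.30). These genes have many processed pseudogene copies with which they can share reads. On unique hits 28 were called toward C57BL/6J and 10 toward Cast/EiJ, and 19 of the 26 calls were also made in the same direction. Rps18 had 1270, 1640 and 1780 in C57BL/6J and 53.5, 101 and 79.4 in Cast/EiJ, with alleles at 1290 to 1880 (median 1770) and 1230 to 1870 (median 1755). Its *trans* component of -4.32 ± 0.23 in count equivalents became -0.20 on unique hits (adjusted p = 0.63, edgeR). Rpl7a kept its direction, at -4.33 ± 0.17 and -2.66.

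Some glycolytic genes also differed between count equivalents and unique hits. Of 27, 3 were called toward Cast/EiJ and 5 toward C57BL/6J (11.1% and 18.5%, against 6.34% and 7.93% of all genes). On unique hits 4 and 4 were called, and 6 of the 8 calls were made in the same direction. The largest components belonged to enzymes with many pseudogenes. Gapdh had 41100, 50800 and 50500 in C57BL/6J and 261, 355 and 291 in Cast/EiJ, and alleles at 4720 to 15700 (median 5590) and 245 to 385 (median 287). Its *trans* component was -2.80 ± 0.36 in count equivalents and reversed to 0.88 on unique hits (adjusted p = 1.7e-04, edgeR). Enolase Eno1 had 27800, 32700 and 32700 and 2810, 2430 and 2680 in the parents and 26900 to 30200 (median 29550) and 24500 to 28000 (median 27450) for the alleles, with *trans* components of -3.45 ± 0.09 and, on unique hits, -2.37. For the phosphoglycerate mutase Pgam1 the values were -1.08 ± 0.11 and -3.58. Over all 1485 calls, 1186 (79.9%) were also called in the same direction on unique hits and 20 had the opposite sign, and edgeR on unique hits called 1527 genes (14.7% of the 10406). Among the 221 calls of at least 2-fold, 200 were shared and 7 had the opposite sign.

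**Figure D5:**
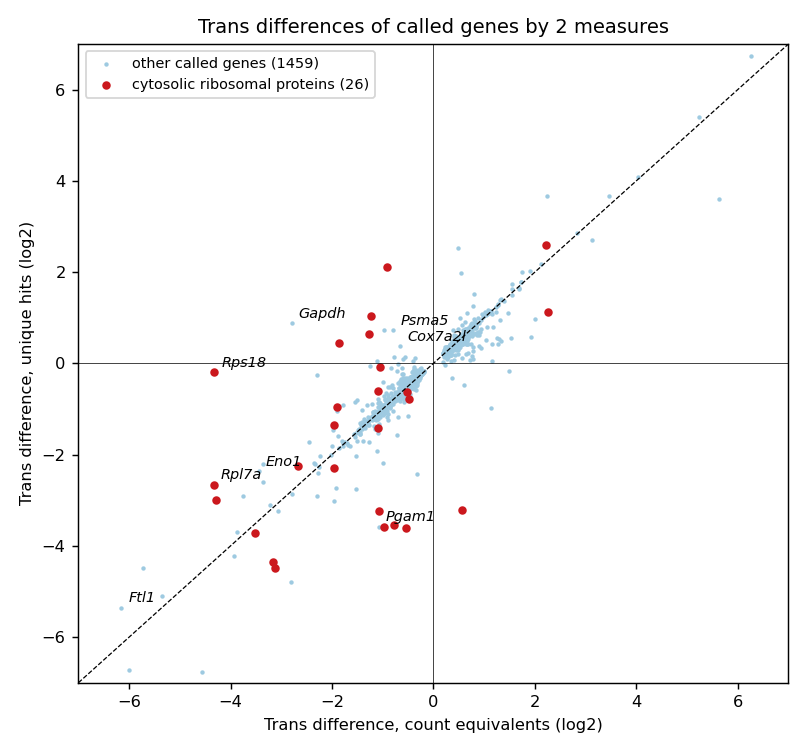
Trans component on unique hits (edgeR, log2, vertical axis) against that in count equivalents (limma, log2, horizontal axis) for the 1485 called genes, with the 26 ribosomal protein genes marked and 8 genes named. Most points lie along the diagonal, and Gapdh (-2.80 and 0.88), Rps18 (-4.32 and -0.20) and Psma5 (-0.80 and 0.73) lie far from it. Axes run from -7 to 7 and 2 genes lie outside them.

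Several of the largest components had the form of Sncg, with parents close together and F1 reads mostly on one allele. Stmn1, which destabilises microtubules, had 1020, 1040 and 1310 in C57BL/6J and 682, 761 and 703 in Cast/EiJ, but 1740 to 1960 (median 1890) for the C57BL/6J allele and 8.44 to 24.8 (median 13.8) for the Cast/EiJ allele. Its *trans* component was 6.26 ± 0.31, and 6.75 on unique hits. The latter rests on 160 to 226 hits of the C57BL/6J allele and 0 to 2 of the Cast/EiJ allele per F1 library. An F0 Cast/EiJ library had 217 to 276. The actin capping subunit Capzb (5.64 ± 0.60), the 14-3-3 protein Ywhah (3.14 ± 0.33) and the kinase Sgk1 (2.25 ± 0.20) had the same form, each with the C57BL/6J allele above both parents and the Cast/EiJ allele below both in all libraries. Few unique hits told their alleles apart. The Cast/EiJ allele had 5 to 11 per F1 library for Capzb, 25 to 48 for Ywhah, 19 to 41 for Sgk1 and 16 to 44 for Sncg. The C57BL/6J allele had 90 to 132, 196 to 327, 315 to 503 and 163 to 278. An F0 Cast/EiJ library had 895 to 1161, 1321 to 1753, 2484 to 3045 and 660 to 961. The reverse form, with parents far apart and alleles close, was seen for Ftl1, the ferritin light chain. It had 1970, 1670 and 2020 in C57BL/6J, 16.2, 18.3 and 11.8 in Cast/EiJ, and alleles at 1810 to 2120 (median 1905) and 1080 to 1280 (median 1165) (*trans* -6.15 ± 0.14). The aldose reductase gene Akr1b3 was called at -3.93 ± 0.22. Tas1r1, a taste receptor subunit, lay toward Cast/EiJ in both quantities, with 64.6, 61.6 and 56 in C57BL/6J, 2210, 3050 and 2870 in Cast/EiJ, and alleles at 49.7 to 73.6 (median 63) and 157 to 175 (median 168) (*trans* 4.03 ± 0.17). Hmga1, an architectural chromatin protein, ran toward C57BL/6J in the same way (allelic -0.79, *trans* -2.44 ± 0.24). The part of mapping to 1 or to both strains' transcripts in these differences was not tested.

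The remaining lists are given by their calls toward Cast/EiJ and then toward C57BL/6J, beside the 6.34% and 7.93% of all genes. The 279 numbered zinc finger genes had 17 calls toward Cast/EiJ and 12 toward C57BL/6J, 67 subunits of oxidative phosphorylation had 2 and 4, 68 mitochondrial ribosomal proteins 4 and 6, and 34 proteasome subunits 2 and 2. Of 51 genes of cilia and their transport, 2 were called toward C57BL/6J (Bbs7 and Kif3a) and 3 toward Cast/EiJ, the 3 all opposing: Cep290, a protein of the ciliary transition zone (0.50 ± 0.08), and the Bardet-Biedl genes Bbs2 (0.26 ± 0.07) and Bbs5 (1.34 ± 0.37). The Bbs5 value rested on 1 cross, being 2.58 with F1 B6xCast and 0.10 with F1 CastxB6. Bbs2 was not called with F1 B6xCast alone (adjusted p = 0.081, limma) and was -0.034 on the authors' posterior log expression (adjusted p = 0.91, limma). Of 17 visual cycle genes, the retinol enzymes Retsat (0.90 ± 0.12) and Rdh12 (0.75 ± 0.24) lay toward Cast/EiJ and Rgr toward C57BL/6J, with neither Retsat nor Rgr called on unique hits (adjusted p = 0.095 and 0.077, edgeR). Ribbon synapse genes (26) had 1 and 2 calls, clock genes (22) 0 and 2 (3 and 4 at an unadjusted p under 0.05, and 0 and 2 on unique hits), heat shock genes (64) 6 and 5, oxidative stress genes (21) 1 and 3, glutathione S-transferases (9) 0 and 2 (the same at an unadjusted p under 0.05 and on unique hits), genes of the unfolded protein response (27) 3 and 1, potassium channels (48) 2 and 3, transmitter receptors (40) 3 and 3, matrix genes (57) 3 and 3, histones (16) 1 and 1, and tRNA synthetases (34) 1 and 1. At an unadjusted p under 0.05, limma gave 2 and 12 for tRNA synthetases and 3 and 10 for potassium channels. For the unfolded protein response it gave 7 and 1, and over all 10406 genes 1482 and 1500. Among 59 retinal disease genes, 6 were called toward Cast/EiJ and 7 toward C57BL/6J, with 6 of the 13 opposing.

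The F1 level, as the mean log2 value of the 2 alleles, shows where the hybrid lies between its parents. It was taken for genes with a *trans* component, an F0 call and no allelic call. Of these 511 genes, 438 had an F1 mean between the parental means. The median position was 0.33, on a scale where 0 is the C57BL/6J mean and 1 the Cast/EiJ mean. The F1 mean was on the C57BL/6J side of the midpoint in 379, of which 70 lay beyond C57BL/6J, and it lay beyond Cast/EiJ in 3. These genes were chosen on the same F0 and F1 values, so their position is a description with no test. Calls also varied with level. In 4 equal groups of the 10406 genes by mean level, from lowest to highest, 12.0%, 12.3%, 14.5% and 18.3% were called. In the lowest group of 2604 genes 52 lay toward Cast/EiJ and 261 toward C57BL/6J, and in the highest 277 and 199. The lowest group had mean levels from 21.0 to below 212 count equivalents. The interferon genes Oasl2, Irf7 and Parp14 and the vessel gene Ly6c1 lay in it. The part of level in the lists that lay toward C57BL/6J was not tested. By chromosome the share ranged from 12.0% on chromosome 17 to 18.3% on chromosome 18. Results from the 2 crosses were close in number. With the allelic difference of F1 B6xCast alone 1155 genes were called and with that of F1 CastxB6 alone 1061, of which 772 were called in both with the same sign, and 4 of the 1485 had opposite signs in the 2 crosses. Both counts use the same F0 libraries, and the 1485 were called on the mean of the 2 crosses. Like signs in the 2 crosses are therefore partly fixed in advance.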

How the data were processed

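Paired-end reads of 101 bases from 12 libraries were trimmed by the authors with Trim Galore 0.2.6 and aligned with Bowtie 0.12.9 to strain-specific transcripts of the mm9 (NCBI37) build, single for F0 and both for F1 libraries. MMSEQ estimated expression per gene and allele. The deposited signal values are normalised count equivalents, and the deposited counts of unique hits are whole reads matching 1 gene and allele. Deposited posterior expression on the natural log scale, from the authors' MMSEQ run, served as an alternative. The authors' own table of model posteriors was not used.

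Values were analysed as log2(value + 1) over 18 columns (6 F0, 12 F1 allele columns) in limma 3.58.1 with a variance trend and a block for libraries giving both alleles (consensus correlation 0.14), for 13414 genes averaging 10 or more allele-specific unique hits across F1 libraries, and p-values were adjusted by Benjamini-Hochberg at a threshold of 0.05. Fold changes on the log2(value + 1) scale understate changes of low genes. Unique hits were tested with edgeR 4.0.16, and DESeq2 1.42.0, other pseudocounts (0.1 and 5), a floor of 1 hit, TMM factors, each cross alone and leaving out each library were alternatives, in R 4.3.3. Scripts were tested on simulated data. The gene lists and genes were chosen with earlier results of these data known. Genes named by rule were, among calls averaging 100 or more count equivalents, with F0 and F1 differences apart and a like call on unique hits, the 8 largest in each direction, the 8 largest opposing and the 4 largest in the allelic direction, up to 3 called members of each list by adjusted p without these filters, and Crx, Nrl, Nr2e3 and Rorb, and further called list members were named after their values were seen. Some members of the lists are counted but not reported here by name.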

Additional observations from a re-analysis of the deposited data

Results flagged for a closer look

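In Gm6483 and Bbs5 the component differed between the 2 crosses, by limma's test of the allelic difference in F1 B6xCast against that in F1 CastxB6 (adjusted p = 0.0017 and 0.0042). For Gm6483, a predicted gene, the *trans* value was -2.93 with F1 B6xCast and -4.60 with F1 CastxB6, a difference of 1.67. For Bbs5, a subunit of the ciliary Bardet-Biedl complex, it was 2.58 and 0.10, a difference of 2.48. The F1 Cast/EiJ allele of Bbs5 ranged from 74 to 591 (median 404) count equivalents and its C57BL/6J allele from 452 to 921 (median 616), and its value on unique hits was 0.48 (adjusted p = 0.046, edgeR). Of the 10406 genes, 37 had such a difference between crosses and 7 of these also had a *trans* call.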

How the results depend on the processing

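The 1485 calls numbered 1226 to 1641 under other pseudocounts, floors, normalisations, tools and blocks, and 1155 to 1623 without 1 library. Opposing calls ranged from 500 to 697 and same-direction calls from 222 to 317 without 1 library. A minimum of 1.5-fold left 600 calls, 291 opposing and 141 in the same direction. Same-direction calls numbered 175 with F1 B6xCast alone and 176 with F1 CastxB6 alone, and opposing calls 382 and 348 when the 2 quantities came from different crosses. Added after seeing the data, lists were recounted without each library. Cone genes toward C57BL/6J then numbered 2 to 6, bipolar genes 2 to 5, antigen processing genes 2 to 4, ganglion cell genes 5 to 8, vessel genes 2 to 6, interferon genes 4 to 6, cholesterol genes 4 to 9, ribosomal genes 23 to 25 and protocadherin beta genes 12 to 14, and amacrine genes toward Cast/EiJ 1 to 4 and splicing factors 7 to 17. With F1 CastxB6 alone the numbers were 3 cone, 2 vessel and 4 interferon genes and 8 splicing factors, and with F1 B6xCast alone 2 vessel genes and 10 splicing factors. Of 3190 alternative values of the 114 genes named by rule, 2969 kept direction and side of the threshold, 213 lost the call and 8 changed sign. Gapdh (0.88), Cox7a2l (0.38) and Psma5 (0.73) changed sign on unique hits and Bbs2 (-0.034) on posterior log expression. Nrl, near 0, was -0.0039 with DESeq2, -0.076 without C57BL/6J replicate 1, -0.0065 without Cast/EiJ replicate 2 and -0.046 without Cast/EiJ replicate 3. The cause was not tested. With the replicate number as a block, 1641 genes were called in limma and, added later, 1917 on unique hits, with 9 ganglion cell and 6 interferon genes toward C57BL/6J. Deviations from group means correlated at 0.10 to 0.56 in the 9 same-numbered pairs among the F0 groups and F1 B6xCast and at -0.14 to 0.065 in the 9 pairs with F1 CastxB6, and 7 of 12 libraries correlated best with their own number. The numbers were therefore not taken as pairs over all 4 groups. Added later, a limma fit of the F0 and F1 B6xCast libraries alone called 929 genes (412 opposing, 137 in the same direction) without the block and 1117 (450 and 148) with it, where 545 lay toward Cast/EiJ and 572 toward C57BL/6J. With that block 4 cone, 2 bipolar, 6 ganglion cell, 2 vessel, 4 interferon and 4 cholesterol genes lay toward C57BL/6J, and 2 amacrine genes and 16 splicing factors toward Cast/EiJ. Low levels limit what can be called, with a median standard error of 0.20 in the lowest of 4 equal groups by level and 0.089 in the highest.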

Other observations

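The protocadherin beta, minichromosome maintenance and 14-3-3 families, chosen after their values were seen, are given as descriptions with no test. The protocadherin beta genes encode clustered neuronal cell adhesion proteins on chromosome 18. Of 20 measured members, 14 were called toward C57BL/6J and none toward Cast/EiJ by limma, against 7.93% and 6.34% of all genes. The same counts were obtained on unique hits with edgeR, and all 20 values were negative (median -0.80, range -2.34 to -0.09). Pcdhb9 had 201, 211 and 233 count equivalents in C57BL/6J and 16.6, 35.7 and 40.9 in Cast/EiJ, with alleles at 183 to 226 (median 209) and 135 to 171 (median 143). The Cast/EiJ parent was far below both F1 alleles, and the *trans* component was -2.34 ± 0.26 (adjusted p = 1.4e-05, limma). Pcdhb18 opposed an allelic difference of 0.64 at -1.36 ± 0.15. Of the 14 calls, 4 were opposing, 5 ran in the allelic direction and 5 had no allelic call. Members are close in sequence and can share reads, and the part of read assignment in these differences was not tested.

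The minichromosome maintenance genes encode parts of the DNA replication helicase or its helpers. Of 8 members, 4 were called toward C57BL/6J and none toward Cast/EiJ, against 7.93% and 6.34% of all genes. The median was -0.49, and on unique hits the counts were 2 and 0. Mcm2 had 164, 187 and 179 count equivalents in C57BL/6J and 87.3, 91.3 and 107 in Cast/EiJ, and overlapping alleles at 91.6 to 169 (median 147) and 124 to 157 (median 138) (*trans* -0.87 ± 0.18, adjusted p = 0.0035, limma). Of 6 genes of 14-3-3 proteins, which bind phosphorylated partners, Ywhah (3.14) and Ywhab (0.67) were called toward Cast/EiJ and Ywhaz (-0.34) and Ywhag (-0.27) toward C57BL/6J.

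Among the largest differences, Gm5561 was listed near 0 in all F0 C57BL/6J libraries and at 431, 317 and 308 count equivalents in Cast/EiJ, while its F1 reads lay mainly on the C57BL/6J allele, at 219 to 355 (median 262). Gm6180 was listed below 1 on the F1 C57BL/6J allele in every hybrid, and at 94.9, 74.4 and 109 in the F0 C57BL/6J libraries. No fold is given for either.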
